A study of Homo sapiens with 4 samples.

Results

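The 4 tag pairs described here, HTO6/HTO10, HTO3/HTO8, HTO1/HTO9 and HTO7/HTO9, mark 4 cultures of OVCAR5 cells, an established line of human ovarian carcinoma, whose interferon gamma gene level was the lowest or, for HTO6/HTO10, the next to lowest of their block. They were picked from measured values, and a block is a set of tag pairs grouped for that choice. The blocks were HTO1 to HTO6 with HTO10, then HTO8/HTO10, HTO9/HTO10 and HTO1 to HTO3 with HTO8, then HTO5 to HTO7 with HTO8, HTO8/HTO9 and HTO1/HTO9, and last HTO3 to HTO7 with HTO9. No source used here says what a block stands for. A barcode counted as a cell with 1000 or more genes detected and no more than 20% of its UMIs (unique molecular identifiers, 1 per captured RNA molecule) from mitochondrial genes, and its pair as clear where the top 2 tags each have at least 3 times the third. Together they held 818 of 5298 cells with a clear tag pair, or 15.4%, with 208 cells in HTO6/HTO10, 194 in HTO3/HTO8, 176 in HTO1/HTO9 and 240 in HTO7/HTO9. Just past that margin either way, 861 cells were in the 4 pairs at a margin of 2 times and 746 at 5 times.

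The study put supernatant from a coculture of tumor cells and T cells on OVCAR5 cells and read the response by single-cell RNA sequencing. Per the labels, 24 cultures were pooled, 1 for each of 6 supernatant levels (undiluted, diluted 5, 25, 125 and 625 times, or none) at 2, 6, 12 and 24 h. All were grown in IMDM with fetal calf serum, and the labels give no composition or cytokine content of the supernatant. Cells of each culture carried 2 hashtags, antibodies with an oligonucleotide, and 24 pairs were in use.

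No source used here says which tag pair had which dilution or time, so the pairs are named by their tags and given no dose or time. Each pair was 1 culture. Differences between pairs therefore have no replicate check and no test, and the intervals below are 95% intervals of counting error only. The pairs were set against the 4 pairs with the lowest interferon gamma list (HTO7/HTO10, HTO4/HTO8, HTO2/HTO9 and HTO1/HTO10), called the 4 lowest pairs, with 830 cells. Because that list chose both sets, higher interferon genes in the described pairs are a description.

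Interferon gamma, released by activated T cells, binds a receptor that activates the kinases JAK1 and JAK2 and, through them, transcription at DNA elements called GAS. One early target is the transcription factor gene IRF1, whose product binds ISRE elements and raises further genes, among them those of antigen presentation. Tumor necrosis factor, also released by T cells, acts through another factor, NF-κB, which is held back by the inhibitor encoded by NFKBIA and raises that gene together with chemokine genes.

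Only 4 genes passed 2-fold over the highest of the 4 lowest pairs in all 4 described pairs: IRF1, BATF2, ICAM1 and TAP1. Of these, IRF1 passed under every alternative tried. TAP1 (a log2 difference of 1.01 in HTO6/HTO10) and ICAM1 (1.03 in HTO7/HTO9) lay just past the line, and both dropped out at a tag margin of 2 times, where 2 genes were left. At 3-fold, or with 50 CPM added in place of 10, IRF1 alone was left, while 9 genes passed with 1 CPM added. The promoters of the 4 genes are shown because they met this rule. Each runs 5′ to 3′ from 250 bases before to 50 bases after the gene start, from RefSeq on GRCh38.p14. Capitals mark matches to GAS (TTCNNNGAA), ISRE (GAAA, any 2 bases, GAAA) or the κB motif (GGGRNNYYCC), searched on both strands. R stands for A or G, Y for C or T and N for any base, and sites that depart from a pattern stay unmarked. IRF1 lies at chr5:132490724-132491023, minus strand, BATF2 at chr11:64990228-64990527, minus strand, TAP1 at chr6:32853655-32853954, minus strand and ICAM1 at chr19:10270870-10271169, plus strand.

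IRF1: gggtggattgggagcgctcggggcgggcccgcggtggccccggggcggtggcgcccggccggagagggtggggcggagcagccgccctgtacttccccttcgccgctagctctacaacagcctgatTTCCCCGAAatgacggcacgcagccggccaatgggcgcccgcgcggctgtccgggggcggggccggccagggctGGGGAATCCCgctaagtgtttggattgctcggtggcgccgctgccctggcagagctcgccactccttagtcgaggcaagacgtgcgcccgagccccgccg
BATF2: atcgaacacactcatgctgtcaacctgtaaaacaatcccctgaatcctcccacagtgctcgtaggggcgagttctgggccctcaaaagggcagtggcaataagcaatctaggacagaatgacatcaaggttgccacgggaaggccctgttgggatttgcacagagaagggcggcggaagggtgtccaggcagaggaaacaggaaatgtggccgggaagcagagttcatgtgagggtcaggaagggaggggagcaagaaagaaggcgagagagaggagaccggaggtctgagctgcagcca
TAP1: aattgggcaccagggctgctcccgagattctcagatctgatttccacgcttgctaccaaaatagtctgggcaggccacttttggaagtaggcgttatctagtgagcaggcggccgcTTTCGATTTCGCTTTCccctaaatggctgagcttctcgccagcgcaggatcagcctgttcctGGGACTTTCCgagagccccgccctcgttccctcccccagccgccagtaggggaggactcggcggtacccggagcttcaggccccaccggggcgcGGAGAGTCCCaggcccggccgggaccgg
ICAM1: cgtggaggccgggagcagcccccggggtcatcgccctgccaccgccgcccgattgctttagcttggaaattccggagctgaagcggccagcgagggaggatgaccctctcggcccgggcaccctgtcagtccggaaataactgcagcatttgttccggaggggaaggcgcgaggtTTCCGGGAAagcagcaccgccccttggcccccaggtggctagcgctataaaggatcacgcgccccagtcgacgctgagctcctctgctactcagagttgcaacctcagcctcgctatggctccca

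The IRF1 window held 1 GAS match beginning 124 bases before the start and 1 κB match beginning 50 bases before it. TAP1 held 2 overlapping ISRE matches, beginning 134 and 128 bases before the start, and 2 κB matches. ICAM1 held 1 GAS match, beginning 75 bases before the start, and BATF2 held none of the 3 motifs. The BATF2 window is placed by the RefSeq start at 64990277, which lies inside the GENCODE span of the gene given below. Bases upstream of that span were therefore not searched, and the missing motifs describe this window only. GAS was in 7.66% of all 35116 RefSeq promoters of this length, ISRE in 3.57% and the κB motif in 11.3%. Of the 26 genes with a promoter in the table among the 32 past 2-fold in at least 3 pairs, 10 (38.5%) held GAS, 9 (34.6%) ISRE and 6 (23.1%) the κB motif. Of the 60 with a promoter among the 79 past 2-fold in any pair, 13 (21.7%) held GAS, 23 (38.3%) ISRE and 19 (31.7%) the κB motif, so that the order of GAS and the κB motif differed between both sets. A match describes letters in the window and is not a shown binding site.

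The described pairs had 2437536 to 3270350 UMIs each, so that 3 UMIs corresponded to 0.917 to 1.23 CPM, UMIs of a gene per 1000000 UMIs of the pair. Median depth per cell was 13361.5 to 14402 UMIs, against 13104 to 14795 in the 4 lowest pairs, and the median mitochondrial share was 9.51% to 10.9%, against 8.67% to 10.1%. Epithelial markers were present, with 5 of 8 at 50 UMIs or more over the 4 pairs. KRT18 had 20360 UMIs, while the ovarian marker MUC16 had 0, CDH1 26 and PAX8 37. T cell markers were at or near 0: their summed level was 1.53 to 3.31 CPM, against 0 to 5.21 CPM in the 4 lowest pairs, and CD3E, CD3G, TRAC, CD2 and PTPRC had no UMI in the described pairs. Myeloid markers summed to 0.410 to 1.84 CPM, against 0.420 to 1.23 CPM, and endothelial markers to at most 0.410 CPM, against at most 0.306 CPM. Fibroblast and mesenchymal markers summed to 2027 to 2173 CPM, against 1991 to 2114 CPM, nearly all from VIM with 24262 UMIs, while COL1A2, COL3A1 and DCN had no UMI and COL1A1 had 4.

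The interferon gamma list, 28 target genes summed, had 2598 CPM in HTO6/HTO10, 3938 in HTO3/HTO8, 5418 in HTO1/HTO9 and 5839 in HTO7/HTO9, against 1096 to 1215 CPM in the 4 lowest pairs. The 4 lowest pairs were chosen by this list, so that every other pair lies above them by that choice. Among the described pairs the level was higher at each step in the given order. The ratio to the highest of the 4 lowest pairs was 2.14 (2.06 to 2.22) in HTO6/HTO10, 3.24 (3.13 to 3.36) in HTO3/HTO8, 4.46 (4.30 to 4.62) in HTO1/HTO9 and 4.81 (4.64 to 4.97) in HTO7/HTO9. Among the 24 pairs these levels ranked 5, 9, 12 and 13 from the bottom.

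The next pair up in each block shows where the choice was drawn. In the block of HTO6/HTO10 it was HTO5/HTO10 with 3125 CPM, in that of HTO3/HTO8 it was HTO2/HTO8 with 5182 CPM, in that of HTO1/HTO9 it was HTO8/HTO9 with 7287 CPM, and in that of HTO7/HTO9 it was HTO6/HTO9 with 8918 CPM. HTO6/HTO10 was not the lowest of its block, because HTO1/HTO10, 1 of the 4 lowest pairs, stands in it.

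**Figure D1:**
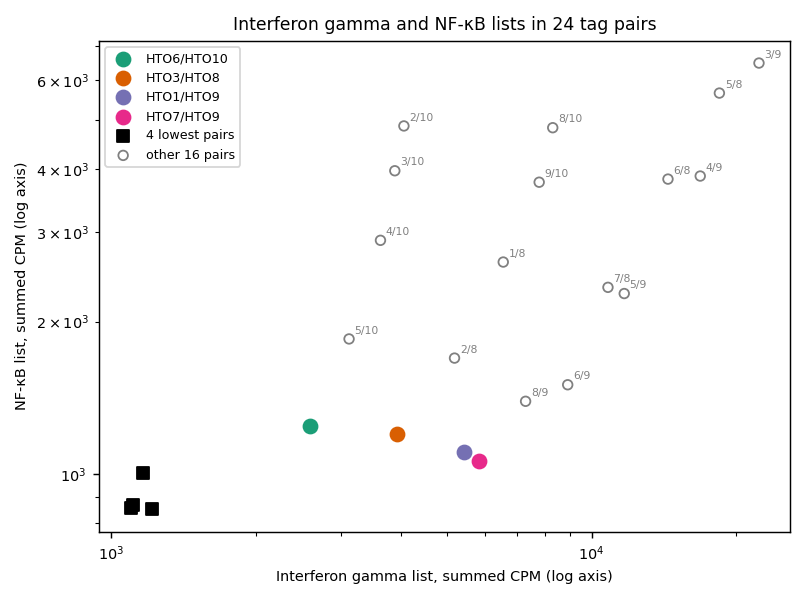
Summed level of the interferon gamma list (horizontal) and of the NF-κB list (vertical) in CPM on log axes, 1 point for each of 24 tag pairs, with numbers giving the tags of the other 16. The 4 described pairs lie at 2598 to 5839 CPM on the interferon axis, right of the 4 lowest pairs at 1096 to 1215 CPM, while their NF-κB levels of 1061 to 1241 CPM lie below all 16 others.

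IRF1 (ENSG00000125347, chromosome 5, 132481609 to 132490798) had 943 CPM in HTO6/HTO10, 691 in HTO3/HTO8, 477 in HTO1/HTO9 and 495 in HTO7/HTO9, against 60.1 to 89.2 CPM in the 4 lowest pairs. It was highest in HTO6/HTO10, the pair with the weakest interferon gamma list, and every described pair lay far above the lowest ones. The ratio to the highest of them was 10.6 (9.37 to 11.97) in HTO6/HTO10 and 5.55 (4.90 to 6.31) in HTO7/HTO9. In HTO6/HTO10, IRF1 made up 36.3% of the list's level, against 8.48% in HTO7/HTO9. Without IRF1 the list's ratio was 1.46 (1.40 to 1.53) in HTO6/HTO10 and was 4.73 (4.57 to 4.90) in HTO7/HTO9.

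The list of 17 interferon receptors and signalling genes, which holds IRF1, had close levels in the 4 described pairs, with 1588 CPM in HTO6/HTO10, 1638 in HTO3/HTO8, 1592 in HTO1/HTO9 and 1602 in HTO7/HTO9, against 465 to 508 CPM in the 4 lowest pairs. The even sums rest on few genes, with IRF1 alone at 943 CPM in HTO6/HTO10 and 495 in HTO7/HTO9. Of 11 measured members, 1 in HTO6/HTO10, 3 in HTO3/HTO8, 3 in HTO1/HTO9 and 3 in HTO7/HTO9 passed 2-fold, beside 0.104%, 0.676%, 1.11% and 1.11% of all genes. IRF9, a transcription factor of the interferon response, had 27.3 CPM in HTO6/HTO10, 40.4 in HTO3/HTO8, 43.5 in HTO1/HTO9 and 41.3 in HTO7/HTO9, against 4.17 to 11.3 CPM. The receptor chains did not stand apart: IFNGR1 had 12.8 to 14.4 CPM in the described pairs, against 10.1 to 15.98 CPM, and IFNGR2 32.4 to 34.8 CPM, against 26.4 to 39.1 CPM.

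BATF2 (ENSG00000168062, chromosome 11, 64987943 to 64997045), a transcription factor of the AP-1 family, had 47.7 CPM in HTO6/HTO10, 94.8 in HTO3/HTO8, 69.3 in HTO1/HTO9 and 60.2 in HTO7/HTO9, against 5.90 to 9.81 CPM in the 4 lowest pairs. Its level peaked in HTO3/HTO8, 9.66 (6.68 to 14.4) times the highest of the lowest pairs. ICAM1 (ENSG00000090339, chromosome 19, 10270835 to 10286615), an adhesion molecule bound by integrins of T cells, had 124 CPM in HTO6/HTO10, 171 in HTO3/HTO8, 159 in HTO1/HTO9 and 117 in HTO7/HTO9, against 32.5 to 52.1 CPM. It lay just past 2-fold in HTO6/HTO10 and HTO7/HTO9, and below all of the other 16 pairs, which had 180.5 to 1251 CPM. TAP1 (ENSG00000168394, chromosome 6, 32845209 to 32853978), which carries peptides to class I molecules, had 55.2 CPM in HTO6/HTO10, 143 in HTO3/HTO8, 252 in HTO1/HTO9 and 240.3 in HTO7/HTO9, against 12.6 to 22.4 CPM.

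Among 5767 genes that averaged 20 CPM or more over the 24 pairs, 6 (0.104%) passed 2-fold on the log2(CPM + 10) scale above the highest of the 4 lowest pairs in HTO6/HTO10, 39 (0.676%) in HTO3/HTO8, 64 (1.11%) in HTO1/HTO9 and 64 (1.11%) in HTO7/HTO9. The 4 comparisons share the same 4 lowest pairs. All 4 were passed by the 4 genes above (0.0694%), and without HTO6/HTO10, which held the fewest, the other 3 shared 31. At least 3 were passed by 32 genes (0.555%), and at least 1 by 79 genes (1.37%), of which 54 were in the lists. The 6 genes of HTO6/HTO10 were those 4 with HAPLN3, a hyaluronan link protein gene, and BIRC3. No gene was 2-fold below the lowest of the 4 lowest pairs in any described pair. Within the 4 lowest pairs themselves, 69 genes (1.2%) ranged by 2-fold or more.

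**Figure D2:**
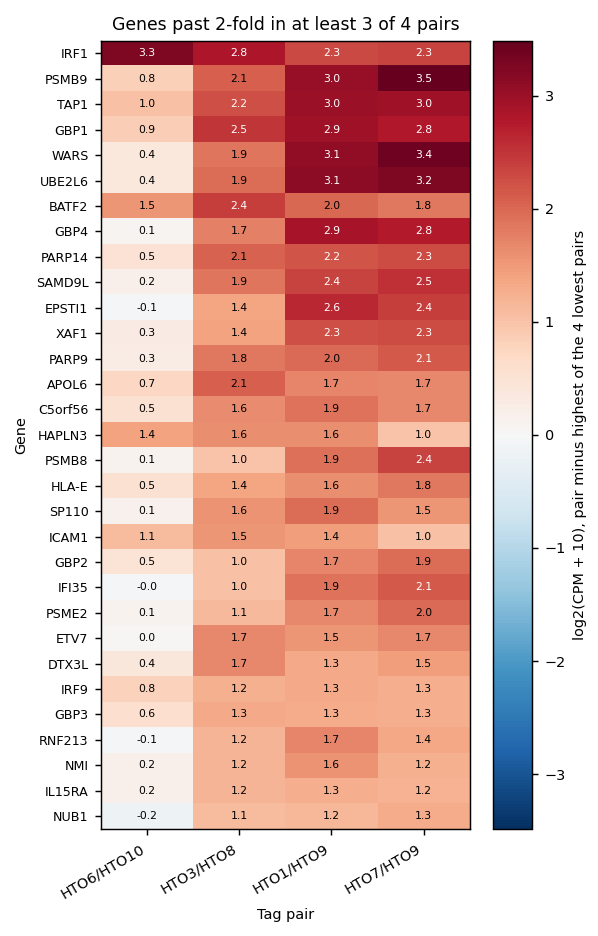
Difference of log2(CPM + 10) between each described pair and the highest of the 4 lowest pairs, for 31 of the 32 genes past 2-fold in at least 3 described pairs, ordered by their mean difference. IRF1 is strongest in HTO6/HTO10 (3.26), whereas PSMB9, WARS and UBE2L6 stand below 1 there and above 3 in HTO7/HTO9.

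Of 26 interferon gamma genes measured well enough, 2 in HTO6/HTO10, 12 in HTO3/HTO8, 19 in HTO1/HTO9 and 18 in HTO7/HTO9 passed 2-fold, beside 0.104%, 0.676%, 1.11% and 1.11% of all genes. None of the 26 fell by 2-fold. The median difference of their log2(CPM + 10) was 0.26 in HTO6/HTO10, 0.83 in HTO3/HTO8, 1.37 in HTO1/HTO9 and 1.31 in HTO7/HTO9, beside -0.15, -0.13, -0.18 and -0.20 over all 5767 genes in the same order, where the comparison is with the highest of 4 pairs. GBP1 (ENSG00000117228, chromosome 1, 89052319 to 89065360), a guanylate-binding GTPase, had 38.5 CPM in HTO6/HTO10, 141 in HTO3/HTO8, 197 in HTO1/HTO9 and 177 in HTO7/HTO9, against 7.35 to 16.9 CPM in the 4 lowest pairs. GBP4, of the same family, had 11.2 CPM in HTO6/HTO10, 56.6 in HTO3/HTO8, 134 in HTO1/HTO9 and 124 in HTO7/HTO9, against 3.36 to 9.81 CPM. In HTO6/HTO10 the ratio was 2.28 (1.64 to 3.20) for GBP1 and 1.14 (0.682 to 1.91) for GBP4, which cannot be told from 1 at this depth. APOL6, an apolipoprotein L gene, was highest in HTO3/HTO8, with 229.8 CPM in HTO6/HTO10, 598 in HTO3/HTO8, 465 in HTO1/HTO9 and 451 in HTO7/HTO9, against 57.3 to 135 CPM.

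WARS (ENSG00000140105, chromosome 14, 100333788 to 100376805), the tryptophanyl-tRNA synthetase gene, had 93.04 CPM in HTO6/HTO10, 286 in HTO3/HTO8, 679 in HTO1/HTO9 and 838 in HTO7/HTO9, against 49.98 to 70.5 CPM in the 4 lowest pairs. The ratio to the highest of these was 1.32 (1.10 to 1.59) in HTO6/HTO10 and 11.9 (10.3 to 13.8) in HTO7/HTO9. IDO1 (ENSG00000131203, chromosome 8, 39902275 to 39928444), which degrades tryptophan, had 27.6 CPM in HTO6/HTO10, 39.3 in HTO3/HTO8, 296 in HTO1/HTO9 and 389.9 in HTO7/HTO9, against 10.1 to 31.3 CPM. IDO1 led the genes that were higher in HTO1/HTO9 than in HTO3/HTO8. It was inside the range of the lowest pairs in HTO6/HTO10 and 9.48 (7.60 to 11.9) times their highest in HTO1/HTO9. CXCL10, a chemokine gene and known interferon gamma target, had 48.00 CPM in HTO6/HTO10, 27.5 in HTO3/HTO8, 114 in HTO1/HTO9 and 53.8 in HTO7/HTO9, against 15.5 to 57.9 CPM, and so lay above the lowest pairs in HTO1/HTO9 alone, where the ratio was 1.98 (1.64 to 2.39). The other 16 pairs had 61.5 to 3896 CPM.

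The immunoproteasome list, 5 genes whose products cut peptides for class I molecules, had 701 CPM in HTO6/HTO10, 1359 in HTO3/HTO8, 2201 in HTO1/HTO9 and 2798 in HTO7/HTO9, against 573 to 629.5 CPM in the 4 lowest pairs. Past 2-fold were 0 in HTO6/HTO10, 3 in HTO3/HTO8, 4 in HTO1/HTO9 and 5 in HTO7/HTO9, beside 0.104%, 0.676%, 1.11% and 1.11% of all genes. PSMB9 (ENSG00000240065, chromosome 6, 32844136 to 32859585), a catalytic subunit, had 84.8 CPM in HTO6/HTO10, 219 in HTO3/HTO8, 427 in HTO1/HTO9 and 592 in HTO7/HTO9, against 37.4 to 43.8 CPM. The RefSeq start of PSMB9, 32854192, lies inside the span given here and 488 bases from the RefSeq start of TAP1 on the opposite strand. Both genes were lowest among the described pairs in HTO6/HTO10. PSME2, a subunit of the proteasome activator, had 283 CPM in HTO6/HTO10, 578 in HTO3/HTO8, 848 in HTO1/HTO9 and 1044 in HTO7/HTO9, against 222 to 257 CPM. The 14 genes of the constitutive proteasome summed to 5471 CPM in HTO6/HTO10, 6034 in HTO3/HTO8, 6484 in HTO1/HTO9 and 6675 in HTO7/HTO9, against 5365 to 5783 CPM, and none of them passed 2-fold in any described pair.

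MHC class I and peptide loading genes summed to 4429 CPM in HTO6/HTO10, 5068 in HTO3/HTO8, 6499.6 in HTO1/HTO9 and 8386 in HTO7/HTO9, against 3299 to 3808 CPM in the 4 lowest pairs. Of 10 measured members, 1 in HTO6/HTO10, 2 in HTO3/HTO8, 3 in HTO1/HTO9 and 6 in HTO7/HTO9 passed 2-fold, beside 0.104%, 0.676%, 1.11% and 1.11% of all genes. B2M, which encodes the light chain that all class I molecules share, had 2336 CPM in HTO6/HTO10, 2462 in HTO3/HTO8, 3110.1 in HTO1/HTO9 and 4240.2 in HTO7/HTO9, against 1545 to 1931 CPM. HLA-B had 324 CPM in HTO6/HTO10, 416 in HTO3/HTO8, 540.3 in HTO1/HTO9 and 832 in HTO7/HTO9, against 182 to 290 CPM, although reads of near-identical HLA genes cannot be told apart with certainty. All 4 described pairs were above the lowest pairs for both genes, with ratios for HLA-B of 1.12 (1.02 to 1.23) in HTO6/HTO10 and 2.87 (2.65 to 3.11) in HTO7/HTO9.

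MHC class II genes separated the described pairs most. The list had 48.3 CPM in HTO6/HTO10, 67.6 in HTO3/HTO8, 317 in HTO1/HTO9 and 689.8 in HTO7/HTO9, against 17.5 to 32.8 CPM in the 4 lowest pairs. Of 4 measured members, 0 in HTO6/HTO10, 0 in HTO3/HTO8, 4 in HTO1/HTO9 and 4 in HTO7/HTO9 passed 2-fold, beside 0.104%, 0.676%, 1.11% and 1.11% of all genes. CD74 (ENSG00000019582, chromosome 5, 150401637 to 150412929), the invariant chain of class II molecules, had 28.3 CPM in HTO6/HTO10, 29.8 in HTO3/HTO8, 202 in HTO1/HTO9 and 463 in HTO7/HTO9, against 7.56 to 18.7 CPM. CD74 was near the lowest pairs in HTO6/HTO10 and HTO3/HTO8, with ratios of 1.51 (1.08 to 2.14) and 1.59 (1.13 to 2.26), and far above them in HTO7/HTO9, with 24.8 (19.2 to 32.6). HLA-DRA had 2.63 CPM in HTO6/HTO10, 4.41 in HTO3/HTO8, 29.9 in HTO1/HTO9 and 69.4 in HTO7/HTO9, against 0.919 to 2.08 CPM. CIITA, the master activator of class II genes, had 2.96 CPM in HTO6/HTO10, 13.6 in HTO3/HTO8, 16.4 in HTO1/HTO9 and 13.1 in HTO7/HTO9, against 0.306 to 1.68 CPM, so that HTO3/HTO8 was beside HTO7/HTO9 for CIITA and beside HTO6/HTO10 for CD74. In the block of HTO6/HTO10 no pair had a higher class II list than HTO6/HTO10 (40.8 to 56.8 CPM by counting error). HTO3/HTO10 (47.2 CPM), HTO5/HTO10 (42.8) and HTO4/HTO10 (41.0) lay inside that interval, HTO2/HTO10 (39.2) and HTO1/HTO10 (32.8) below it. By this list HTO6/HTO10 was not the weakest of its block, and was not told apart from those inside the interval.

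Antiviral interferon-stimulated genes, which answer to type I interferon as well as interferon gamma, summed to 2426 CPM in HTO6/HTO10, 3296 in HTO3/HTO8, 4189 in HTO1/HTO9 and 4930.1 in HTO7/HTO9, against 1835 to 2257 CPM in the 4 lowest pairs. Of 28 measured members, 0 in HTO6/HTO10, 9 in HTO3/HTO8, 11 in HTO1/HTO9 and 12 in HTO7/HTO9 passed 2-fold, beside 0.104%, 0.676%, 1.11% and 1.11% of all genes. UBE2L6, the conjugating enzyme for the ubiquitin-like protein ISG15, had 33.9 CPM in HTO6/HTO10, 120.5 in HTO3/HTO8, 283 in HTO1/HTO9 and 311 in HTO7/HTO9, against 17.2 to 23.9 CPM. PARP14 and SAMD9L showed the same order: PARP14 had 62.5 CPM in HTO6/HTO10, 202 in HTO3/HTO8, 224 in HTO1/HTO9 and 239 in HTO7/HTO9, against 18.8 to 41.03 CPM. ISG15 itself lay inside the range of the lowest pairs in HTO6/HTO10 and HTO3/HTO8, with 271 CPM in HTO6/HTO10, 334 in HTO3/HTO8, 639 in HTO1/HTO9 and 753 in HTO7/HTO9, against 209 to 470 CPM. IFI27 had 922 CPM in HTO6/HTO10, 875 in HTO3/HTO8, 579 in HTO1/HTO9 and 788 in HTO7/HTO9, against 377 to 821 CPM, and was past 2-fold in none of them.

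The NF-κB list gave a smaller ratio than the interferon gamma list in each described pair, but the gap was not wide in HTO6/HTO10. There its ratio of 1.24 stood beside 1.46 for the interferon gamma list without IRF1. It was above those of MHC class I (1.16), immunoproteasome (1.11) and antiviral genes (1.07). The list of 28 genes had 1241 CPM in HTO6/HTO10, 1196 in HTO3/HTO8, 1105 in HTO1/HTO9 and 1061 in HTO7/HTO9, against 851 to 1003 CPM in the 4 lowest pairs. All 4 described pairs were above the lowest ones and ranked 8, 7, 6 and 5 from the bottom in the given order, directly above them. The ratio to the highest of the lowest pairs was 1.24 (1.18 to 1.30) in HTO6/HTO10, 1.19 (1.14 to 1.25) in HTO3/HTO8, 1.10 (1.05 to 1.16) in HTO1/HTO9 and 1.06 (1.01 to 1.11) in HTO7/HTO9. That highest level came from HTO1/HTO10, and without this pair the ratios were 1.43, 1.38, 1.27 and 1.22. ICAM1, past 2-fold in all 4 pairs, was counted in the interferon gamma list and not in the NF-κB list. The next counts depend on that assignment. Of 24 measured members, 1 in HTO6/HTO10, 0 in HTO3/HTO8, 1 in HTO1/HTO9 and 0 in HTO7/HTO9 passed 2-fold, beside 0.104%, 0.676%, 1.11% and 1.11% of all genes. Their median difference of log2(CPM + 10) was 0.10 in HTO6/HTO10, 0.16 in HTO3/HTO8, -0.05 in HTO1/HTO9 and -0.0018 in HTO7/HTO9, beside -0.15, -0.13, -0.18 and -0.20 over all 5767 genes in the same order. Above the highest of the lowest pairs by any margin were 15, 16, 11 and 11 of the 24 members (62.5%, 66.7%, 45.8% and 45.8%), beside 15.4%, 19.7%, 15.95% and 13.9% of all genes. The NF-κB members thus stood above the lowest pairs more often than all genes did, by small amounts.

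NFKBIA (ENSG00000100906, chromosome 14, 35401511 to 35404749), the NF-κB inhibitor, had 117 CPM in HTO6/HTO10, 76.8 in HTO3/HTO8, 57.4 in HTO1/HTO9 and 64.2 in HTO7/HTO9, against 34.7 to 55.2 CPM in the 4 lowest pairs and 103 to 1435 CPM in the other 16. All 4 values were above the lowest pairs. HTO6/HTO10 had a ratio of 2.12 (1.77 to 2.55), just under 2-fold with 10 CPM added, and HTO1/HTO9 1.04 (0.829 to 1.31). BIRC3 (ENSG00000023445, chromosome 11, 102317450 to 102339403), an inhibitor of apoptosis, had 97.6 CPM in HTO6/HTO10, 74.6 in HTO3/HTO8, 52.9 in HTO1/HTO9 and 79.8 in HTO7/HTO9, against 15.96 to 38.3 CPM, and passed 2-fold in HTO6/HTO10. TNIP1, which binds the inhibitor A20, passed it in HTO1/HTO9, with 72.00 CPM in HTO6/HTO10, 105 in HTO3/HTO8, 142 in HTO1/HTO9 and 98.5 in HTO7/HTO9, against 51.1 to 60.7 CPM. TNFAIP3, the gene of A20, was above the lowest pairs in HTO6/HTO10 and HTO3/HTO8, and RELB, an NF-κB subunit, in these and HTO1/HTO9. TNFAIP3 had 21.7 CPM in HTO6/HTO10, 19.8 in HTO3/HTO8, 8.62 in HTO1/HTO9 and 11.9 in HTO7/HTO9, against 3.98 to 11.95 CPM, and RELB had 22.7 CPM in HTO6/HTO10, 22.4 in HTO3/HTO8, 15.6 in HTO1/HTO9 and 10.1 in HTO7/HTO9, against 7.96 to 10.1 CPM. SOD2, a mitochondrial superoxide dismutase, had 72.7 CPM in HTO6/HTO10, 78.2 in HTO3/HTO8, 91.1 in HTO1/HTO9 and 84.1 in HTO7/HTO9, against 40.6 to 64.4 CPM and 117 to 1835 CPM in the other 16 pairs.

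Inflammatory cytokine and chemokine genes stood near the upper end of the lowest pairs, with 212 CPM in HTO6/HTO10, 226 in HTO3/HTO8, 222 in HTO1/HTO9 and 201 in HTO7/HTO9, against 72.7 to 206 CPM, while the other 16 pairs had 403 to 4095 CPM. HTO1/HTO10 again gave the upper end of the lowest pairs, and HTO7/HTO9 lay below it and the other 3 described pairs slightly above. The rest of the lowest pairs had 72.7 to 113 CPM, well below all 4 described pairs, so the closeness rests on HTO1/HTO10 alone. Of 14 measured members, 0 in HTO6/HTO10, 1 in HTO3/HTO8, 2 in HTO1/HTO9 and 1 in HTO7/HTO9 passed 2-fold, beside 0.104%, 0.676%, 1.11% and 1.11% of all genes. These members were CSF1 in HTO3/HTO8, CCL5 and IL32 in HTO1/HTO9, and IL32 in HTO7/HTO9. CXCL8, a neutrophil attractant, had 65.4 CPM in HTO6/HTO10, 48.9 in HTO3/HTO8, 18.1 in HTO1/HTO9 and 14.7 in HTO7/HTO9, against 7.14 to 80.3 CPM. CXCL1 had 8.88 CPM in HTO6/HTO10, 11.4 in HTO3/HTO8, 6.56 in HTO1/HTO9 and 6.73 in HTO7/HTO9, against 4.20 to 10.4 CPM and 15.1 to 401 CPM in the other 16 pairs. CXCL8 lay inside the range of the lowest pairs in all 4 described pairs, and CXCL1 in all but HTO3/HTO8.

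Set against the strongest pair of the same block, interferon and NF-κB genes differed in how much of the range the described pair covered. From the highest of the 4 lowest pairs to the highest pair of the block, the interferon gamma list had gone 48.5% (46.5 to 50.5) of the way in HTO6/HTO10, 38.4% (37.4 to 39.5) in HTO3/HTO8, 24.4% (23.8 to 24.9) in HTO1/HTO9 and 21.9% (21.5 to 22.3) in HTO7/HTO9. For the NF-κB list the same share was 6.15% (5.13 to 7.19), 5.05% (3.99 to 6.14), 2.19% (1.30 to 3.10) and 1.07% (0.427 to 1.72) in the same order. These intervals hold the end points fixed, leave out their counting error and any spread between cultures, and are no test between both lists. The interferon gamma list was also the one that chose the pairs. The contrast between both lists depends on the pair taken as the top. Measured to the highest of all 24 pairs, the interferon gamma list had gone 6.55% in HTO6/HTO10, 12.9% in HTO3/HTO8, 19.9% in HTO1/HTO9 and 21.9% in HTO7/HTO9, and the NF-κB list 4.34% in HTO6/HTO10, 3.53% in HTO3/HTO8, 1.86% in HTO1/HTO9 and 1.07% in HTO7/HTO9. The lists then stood close in HTO6/HTO10, and the interferon gamma order ran the other way across the 4 pairs. The immunoproteasome list was at 64.9, 81.8, 78.03 and 66.4% and the list of interferon receptors and signalling at 56.4, 49.9, 37.1 and 33.8%.

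Single genes, again measured to the highest pair of the block, differed widely. IRF9 was at or near the block's highest level, with 100, 100, 100 and 90.8% of the way in the given order, and PSMB9 was at 88.5, 83.4, 72.2 and 63.1%. UBE2L6 stood at 56.2, 85.1, 72.7 and 70.4%, APOL6 at 72.1, 80.6, 76.3 and 77.3% and PSME2 at 55.98, 82.4, 79.4 and 65.7%. These genes had gone most of the way in nearly every described pair, but a percentage can be high where the range is small. PSME2 in HTO6/HTO10 had 283 CPM against 257 CPM in the highest of the lowest pairs. The immunoproteasome list had 701 CPM there, between 629.5 CPM and 740 CPM at the top of the block. A value of 100% means that the described pair was itself the highest of its block. IRF1 had gone 52.5, 48.5, 27.9 and 25.5%, WARS 40.9, 40.4, 32.3 and 31.4% and GBP1 28.7, 36.98, 23.3 and 17.4%. ICAM1 passed 2-fold in all 4 pairs and yet had gone only 13.2, 11.5, 8.93 and 6.36%, and NFKBIA 4.48, 3.81, 0.365 and 1.45%. BIRC3, of the NF-κB list, had gone 17.5, 9.12, 3.37 and 7.07%. The median over all genes past 2-fold was 47.7% in HTO6/HTO10, 63.4% in HTO3/HTO8, 43.8% in HTO1/HTO9 and 43.1% in HTO7/HTO9.

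The described pairs also differed among themselves. HTO3/HTO8 was at least 2-fold above HTO6/HTO10 in 28 genes (0.486%) and below it in 3 (0.052%), which were ID2, ID3 and CCN2. HTO1/HTO9 was above HTO3/HTO8 in 16 genes (0.277%) and below it in 5 (0.0867%). HTO7/HTO9 and HTO1/HTO9 were the closest neighbours: only CD74 and HLA-DRB1 were 2-fold higher in HTO7/HTO9 (0.0347%) and only CXCL9 and CCL5 2-fold lower (0.0347%). Across the whole row, HTO7/HTO9 was above HTO6/HTO10 in 71 genes (1.23%) and below it in 29 (0.503%).

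Several gene groups outside the interferon response also varied widely among the 4 lowest pairs. The TGF-β response list had 1343 CPM in HTO6/HTO10, 929 in HTO3/HTO8, 790.1 in HTO1/HTO9 and 640 in HTO7/HTO9, against 643 to 1429 CPM in the 4 lowest pairs. HTO6/HTO10 was near HTO1/HTO10 (1429 CPM) and HTO7/HTO9 near HTO2/HTO9 (643 CPM), each sharing a tag with it. A shared tag did not always go with a near level. HTO7/HTO10, which shares a tag with both HTO6/HTO10 and HTO7/HTO9, had 1080 CPM, and HTO4/HTO8, which shares HTO8 with HTO3/HTO8, had 743 CPM. ID3, an inhibitor of bHLH factors, had 164 CPM in HTO6/HTO10, 62.8 in HTO3/HTO8, 53.3 in HTO1/HTO9 and 30.9 in HTO7/HTO9, against 22.05 to 174 CPM. KRT7, a keratin of simple epithelia, had 876 CPM in HTO6/HTO10, 697 in HTO3/HTO8, 339 in HTO1/HTO9 and 225 in HTO7/HTO9, against 346 to 884 CPM. Complement and acute phase genes summed to 1004 CPM in HTO6/HTO10, 962 in HTO3/HTO8, 793 in HTO1/HTO9 and 813 in HTO7/HTO9, against 575 to 1087 CPM, and none of 7 measured members passed 2-fold. At 1.5-fold, SOX9 was below the lowest pairs in HTO6/HTO10, TCF7L2 and PARD6B in HTO3/HTO8, PRSS23 in HTO1/HTO9, and CPA4, CAMK2N1 and KRT7 in HTO7/HTO9, with no gene in common to all 4.

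Cell death genes summed to 717 CPM in HTO6/HTO10, 823 in HTO3/HTO8, 894 in HTO1/HTO9 and 836 in HTO7/HTO9, against 567 to 637 CPM in the 4 lowest pairs. Of 12 measured members, 0 in HTO6/HTO10, 1 in HTO3/HTO8, 2 in HTO1/HTO9 and 1 in HTO7/HTO9 passed 2-fold, beside 0.104%, 0.676%, 1.11% and 1.11% of all genes. GSDMD, which forms pores in pyroptosis, had 24.98 CPM in HTO6/HTO10, 38.2 in HTO3/HTO8, 87.4 in HTO1/HTO9 and 84.4 in HTO7/HTO9, against 17.02 to 29.1 CPM. S phase genes summed to 2005 CPM in HTO6/HTO10, 1902 in HTO3/HTO8, 1979 in HTO1/HTO9 and 2094 in HTO7/HTO9, against 1999.8 to 2181 CPM, and G2/M genes to 5491 CPM in HTO6/HTO10, 5647 in HTO3/HTO8, 4491 in HTO1/HTO9 and 4451 in HTO7/HTO9, against 4625 to 6116 CPM. No cell cycle gene passed 2-fold either way in any described pair. Heat shock chaperones and TNF receptors and signalling likewise had no member past 2-fold. The TNF list had 414 CPM in HTO6/HTO10, 418 in HTO3/HTO8, 427 in HTO1/HTO9 and 369 in HTO7/HTO9, against 341 to 398 CPM.

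IRF1 was found in most cells of every described pair, while the shares for CD74 and PSMB9 differed more between the pairs. Cells were thinned to 3000 UMIs each, which left out 7 of the 818 cells, so that shares of cells with a UMI can be compared at 1 depth, and the share in the 4 lowest pairs serves as the background. IRF1 was found in 89.4% of thinned cells in HTO6/HTO10, 82.1% in HTO3/HTO8, 66.1% in HTO1/HTO9 and 72.1% in HTO7/HTO9, against 13.4% to 20.5% in the 4 lowest pairs. Unthinned, the IRF1 shares were 99.5%, 98.97%, 96.02% and 95.4% in the given order, against 46.3% to 59.8% in the 4 lowest pairs. CD74 was found in 8.21% of thinned cells in HTO6/HTO10, 7.37% in HTO3/HTO8, 32.2% in HTO1/HTO9 and 52.5% in HTO7/HTO9, against 1.83% to 6.48% in the 4 lowest pairs. Most thinned cells of HTO6/HTO10 thus held IRF1, while CD74 there and in HTO3/HTO8 was close to the background. In HTO7/HTO9 other genes were as widespread as IRF1, with WARS in 76.25% of thinned cells and PSMB9 in 78.3%. In HTO6/HTO10 WARS was found in 25.1%.

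PSMB9 was found in 16.4% of thinned cells in HTO6/HTO10, 52.6% in HTO3/HTO8, 66.1% in HTO1/HTO9 and 78.3% in HTO7/HTO9, against 6.97% to 14.6% in the 4 lowest pairs. NFKBIA was found in 22.2% of thinned cells in HTO6/HTO10, 21.6% in HTO3/HTO8, 15.5% in HTO1/HTO9 and 17.1% in HTO7/HTO9, against 7.32% to 15.3% in the 4 lowest pairs, and in 77.0% to 95.4% in the strongest pairs of the blocks. The thinned 95% binomial intervals of all 4 described pairs overlapped that of HTO1/HTO10, 10.8% to 20.8%. Unthinned, NFKBIA was found in 65.9% of cells in HTO6/HTO10, 57.7% in HTO3/HTO8, 44.3% in HTO1/HTO9 and 49.6% in HTO7/HTO9, against 32.7% to 45.9% in the 4 lowest pairs, so that HTO6/HTO10 stood above HTO1/HTO10 at a close depth (medians of 14402 and 14795 UMIs) and HTO1/HTO9 below it.

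BIRC3 was found in 17.9% of thinned cells in HTO6/HTO10, 17.4% in HTO3/HTO8, 13.8% in HTO1/HTO9 and 16.7% in HTO7/HTO9, against 4.88% to 6.97% in the 4 lowest pairs. Its intervals in HTO6/HTO10, HTO3/HTO8 and HTO7/HTO9 lay above those of all 4 lowest pairs, and that of HTO1/HTO9, 9.04% to 19.8%, overlapped them. The interferon gamma list had a median of 7 UMIs per thinned cell in HTO6/HTO10, 11 in HTO3/HTO8, 13 in HTO1/HTO9 and 16 in HTO7/HTO9, against 3 in each of the 4 lowest pairs. The NF-κB list had a median of 3, 3.5, 3 and 3 UMIs, against 2 to 3 in the 4 lowest pairs and 14 to 20 in the strongest pairs. From the 5th to the 95th percentile, cells had 6 to 36 interferon gamma UMIs in HTO7/HTO9, against 0 to 8 in HTO2/HTO9.

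**Figure D3:**
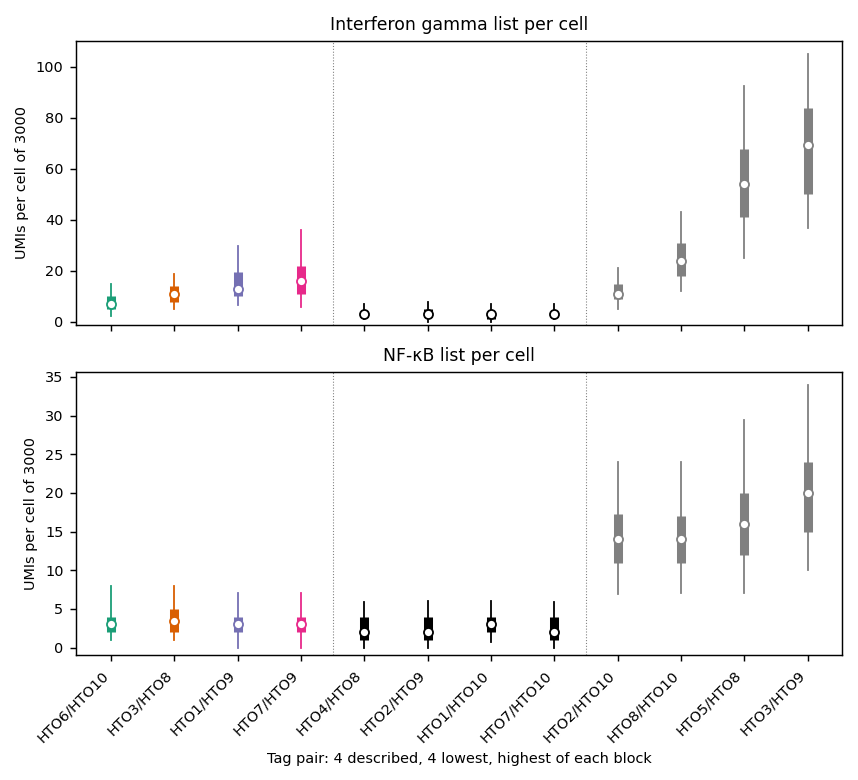
UMIs of the interferon gamma list (top) and the NF-κB list (bottom) per cell thinned to 3000 UMIs, with the median (circle), the quartiles (thick bar) and the 5th to the 95th percentile (thin line), for the described pairs, the 4 lowest pairs and the highest pair of each block. Interferon gamma medians of 7 to 16 in the described pairs stand above the 3 of each lowest pair, while NF-κB medians of 3 to 3.5 stand beside 2 to 3.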

How the data were processed

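Per the labels, 24 cultures of OVCAR5 cells were marked with hashtag pairs, pooled and run as 2 gene expression and 2 hashtag libraries, which 1 deposited matrix holds without telling them apart per cell. The deposited values are UMI counts per gene, hashtag and barcode, and their header names Cell Ranger 5.0.1. In the submitters' processing notes the version is 2.1.1 and the build GRCh38. Reads of near-identical genes (HLA genes, CXCL1 to CXCL3) may be split between copies.

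Counts of the 6408 kept of 10660 barcodes were summed per tag pair, for 5298 cells with a clear pair and 1110 without, and scaled to CPM. Doublets were removed only by the tag margin of 3 times. A gene was called past 2-fold on log2(CPM + 10), among genes with a mean of 20 CPM or more, with no test, since each pair is 1 culture. Ratios have conditional binomial intervals, shares of cells exact binomial intervals, and percentages of the way exact Poisson intervals of the described pair's count with both end points held fixed, all at 95%. PCR copies are merged by UMI, and the intervals leave out any spread between cultures. Scripts used Python 3.11.15, NumPy 2.4.6, pandas 2.3.3 and SciPy 1.17.1 and were tested on simulated data. Gene coordinates are from GENCODE 29 on GRCh38 (34616 of 36602 IDs matched) and promoters from RefSeq.

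The described pairs, blocks and gene lists were chosen with earlier results of these data known. Named genes were WARS, CD74 and PSMB9, the 25 with the largest smallest difference over the 4 pairs, the 5 with the largest fall, and for each list the 4 highest members and the 4 with the largest difference. Other genes named were chosen after their values were seen, as were the interferon gamma list without IRF1 and the 1.5-fold alternative. The values of 1 gene are not reported here.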

Additional observations from a re-analysis of the deposited data

Results flagged for a closer look

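Outside the genes of the report, the matrix holds a row for Katushka, a red fluorescent protein not native to human cells, with 316 UMIs over the 24 tag pairs, of which 39 were in the described pairs. Its level ran from 0 to 11.3 CPM among the pairs. Its source was not tested.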

How the results depend on the processing

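Values are in the order HTO6/HTO10, HTO3/HTO8, HTO1/HTO9 and HTO7/HTO9 where no pair is named. Under all alternatives run every NF-κB list ratio stayed above 1. Every interferon gamma list ratio did so too, but by the choice of the 4 lowest pairs on that list, so this is no check. At 1.5-fold, added after the data were seen, the gene count was 16 in HTO6/HTO10, 75 in HTO3/HTO8, 104 in HTO1/HTO9, 111 in HTO7/HTO9 and 10 in all 4 pairs at once, and the interferon gamma member count was 6 in HTO6/HTO10, and the NF-κB member count was 3, 3, 2 and 2. At 3-fold, the gene count was 1 in HTO6/HTO10, 17 in HTO3/HTO8, 28 in HTO1/HTO9, 30 in HTO7/HTO9 and 1 in all 4 pairs at once, and the interferon gamma member count was 1, 6, 11 and 11, and the NF-κB member count was 0 in HTO6/HTO10 and 0 in HTO1/HTO9. With 1 CPM added in place of 10, the gene count was 13 in HTO6/HTO10 and 9 in all 4 pairs at once, and the interferon gamma member count was 4 in HTO6/HTO10, and the NF-κB member count was 3, 1, 2 and 1. With 50 CPM added, the gene count was 1 in HTO6/HTO10, 13 in HTO3/HTO8, 26 in HTO1/HTO9, 28 in HTO7/HTO9 and 1 in all 4 pairs at once, and the interferon gamma member count was 1, 7, 11 and 9, and the NF-κB member count was 0 in HTO6/HTO10 and 0 in HTO1/HTO9. Among genes averaging 100 CPM or more, the gene count was 17 in HTO3/HTO8, 28 in HTO1/HTO9 and 30 in HTO7/HTO9, and the interferon gamma member count was 11 in HTO1/HTO9 and 11 in HTO7/HTO9. Against the median of the 4 lowest pairs, the gene count was 15 in HTO6/HTO10 and 9 in all 4 pairs at once, and the interferon gamma member count was 5 in HTO6/HTO10, and the NF-κB member count was 2 in HTO6/HTO10, 1 in HTO3/HTO8 and 1 in HTO7/HTO9, and the interferon gamma ratio was 2.29, 3.47, 4.77 and 5.15, and the NF-κB ratio was 1.44, 1.39, 1.28 and 1.23. In cells with 2000 genes and no more than 10% mitochondrial UMIs, the gene count was 10 in HTO6/HTO10, and the interferon gamma member count was 4 in HTO6/HTO10, and the NF-κB member count was 2 in HTO6/HTO10 and 1 in HTO7/HTO9, and the interferon gamma ratio was 2.29 in HTO6/HTO10, 3.41 in HTO3/HTO8 and 4.75 in HTO1/HTO9, and the interferon gamma percentage of the way was 52.3%, 40.3%, 27.4% and 21.3%. At a tag margin of 2 times, the gene count was 2 in all 4 pairs at once, and the NF-κB member count was 2 in HTO6/HTO10, and the interferon gamma ratio was 3.07 in HTO3/HTO8, 4.29 in HTO1/HTO9 and 4.48 in HTO7/HTO9, and the interferon gamma percentage of the way was 52.4% in HTO6/HTO10, 25.1% in HTO1/HTO9 and 21.5% in HTO7/HTO9. At a tag margin of 5 times, the NF-κB member count was 2 in HTO6/HTO10, 1 in HTO3/HTO8 and 1 in HTO7/HTO9, and the interferon gamma ratio was 2.05 in HTO6/HTO10, and the NF-κB ratio was 1.30, 1.27, 1.17 and 1.14, and the interferon gamma percentage of the way was 46.02% in HTO6/HTO10 and 22.4% in HTO7/HTO9, and the NF-κB percentage of the way was 6.40% in HTO3/HTO8, 3.33% in HTO1/HTO9 and 2.45% in HTO7/HTO9. With median-of-ratios scaling, the interferon gamma ratio was 5.04 in HTO7/HTO9. To the highest of all 24 pairs, the interferon gamma percentage of the way was 6.55% in HTO6/HTO10, 12.9% in HTO3/HTO8 and 19.9% in HTO1/HTO9, and the NF-κB percentage of the way was 4.34% in HTO6/HTO10 and 3.53% in HTO3/HTO8. Leaving out 1 pair at a time, the gene count ran from 4 to 31 in all 4 pairs at once. On the same terms the NF-κB member count ran from 1 to 2 in HTO6/HTO10, 0 to 1 in HTO3/HTO8 and 0 to 1 in HTO7/HTO9. Over the same omissions the interferon gamma ratio ran from 2.14 to 2.24 in HTO6/HTO10, 3.24 to 3.39 in HTO3/HTO8, 4.46 to 4.66 in HTO1/HTO9 and 4.81 to 5.03 in HTO7/HTO9, and the NF-κB ratio ran from 1.24 to 1.43 in HTO6/HTO10, 1.19 to 1.38 in HTO3/HTO8, 1.10 to 1.27 in HTO1/HTO9 and 1.06 to 1.22 in HTO7/HTO9. The count in all 4 pairs was 31 without HTO6/HTO10, and the highest NF-κB ratios came without HTO1/HTO10. The causes were not tested. The other alternatives kept 64 gene counts and 98 member counts within 1.5 times, and 60 list ratios and 23 percentages of the way inside their counting intervals. No paired analysis was possible because each tag pair is 1 culture and the labels tie no pair to a replicate. With 2437536 to 3270350 UMIs per pair, genes near 1 CPM rest on about 3 UMIs, and the spread between cultures is unknown.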
